A study of Saccharomyces cerevisiae with 236 samples.

Results

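The deletions examined here remove cytosolic ribosomal protein genes of the large subunit (RPL genes) that yeast can live without. The members were taken from a fixed list of open reading frames, and every barcoded strain on the array whose identifier starts with one of them was kept. All 43 listed genes were found, as 50 deletion strains with 100 of the 10198 tags, among 4993 genes and 5179 strains in all. For 11 gene pairs both paralogues are in the list, for 18 pairs 1 paralogue is, and 3 genes (RPL29, RPL38 and RPL39) have no paralogue, so the group is not made of paralogues throughout. For 7 genes the array holds 2 strains, which are called strain 1 and strain 2.

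The large ribosomal subunit holds the peptidyl transferase centre and the tunnel through which the new polypeptide leaves the ribosome. Baker's yeast descends from a whole-genome duplication, and most of its ribosomal protein genes were kept as nearly identical pairs, so that deletion of 1 copy leaves the other as the source of the protein. Ribosome number is closely tied to growth rate, and cells short of a ribosomal protein typically divide more slowly in media that allow fast growth.

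Pools of 3 collections were compared on 236 TAG4 arrays, which read a pair of DNA barcodes (uptag and downtag) per strain. YKOaux holds homozygous diploid deletions in BY4743, which lacks HIS3, LEU2 and URA3. PBprot holds MATa deletions in BY4741 made prototrophic with the centromeric plasmid pHLUM, and BCprot holds MATa deletions crossed into a prototrophic background that carries the can1Δ::STE2pr-SpHIS5 marker, his3Δ1 and lyp1Δ0. Each pool was read at the start (T0, 5 arrays per collection) and after 5 generations in synthetic complete medium (SC), in SC lacking 1 amino acid or base, in minimal medium (MM; for YKOaux, but not the prototrophs, the labels add histidine, leucine, lysine, methionine and uracil), in rich medium with glucose (YPD), in rich medium with 3% glycerol (YPG), or in YPD with a compound. The compounds were cisplatin (200 µM), which cross-links DNA, a quinolone (125 µM), and the protonophores CCCP (32 µM) and FCCP (6 µM), which uncouple mitochondrial respiration. The last 3 were set against YPD with 2% DMSO (YPD+DMSO). The methods call the replicates biological. Groups held from 1 to 9 arrays, the labels do not tie arrays to cultures, and p-values measure the spread between arrays.

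Array quality was even apart from 1 library. Replicate 8 of YKOaux in YPD correlated with the median of its group at r = 0.559, whereas the other 7 arrays of that group lay between 0.87 and 0.964 and the other 220 arrays in groups of 3 or more between 0.847 and 0.992. Values from YKOaux in YPD are given with this array, and the main counts and tests are repeated without it. A tag value is log2 intensity and measures the share of a strain in its pool, so a strain that falls may do so because it grew slowly or because the others grew faster, which cannot be told apart. For levels, each array was centred on its own median of the same tag type, so that 0 is the typical tag of that array.

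Most member strains were present in the starting pools, and fewer could be detected after growth. A strain was called present where at least 1 tag lay above background in every control array. There were 5 such arrays per collection at T0, 3 or 4 in SC and 16 or 17 in YPD media, so the rule was strictest in YPD media. At T0, 42 of the 50 member strains were present in YKOaux (84%, against 88.1% of all strains), 36 in PBprot (72% against 86.7%) and 34 in BCprot (68% against 81.7%). In SC the counts were 40, 29 and 31 strains. In YPD media they were 30, 23 and 21 strains, or 60.0%, 46% and 42%, where 75.9%, 77.5% and 74.1% of all strains were present. Without replicate 8 of YPD 34 member strains (68%) and 80.8% of all strains were present in YPD media of YKOaux. Under this rule the share of detected members was below the share of all strains at each stage in each collection. The gap was widest in YPD media. With presence on the mean of the control arrays, 42, 38 and 34 members were present at T0 in YKOaux, PBprot and BCprot. In YPD media 38, 31 and 30 were then present, so part of the drop depends on the rule.

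At the level of genes, each of the 43 was present at T0 in at least 1 collection and 29 were present in all 3. RPL7A and RPL42A were absent from YKOaux. In PBprot 8 genes were not called present, namely RPL1B, RPL2B, RPL6A, RPL7B, RPL27A, RPL37A, RPL39 and RPL40A. In BCprot 9 were not, which were RPL1B, RPL2B, RPL6A, RPL13A, RPL23A, RPL24A, RPL34B, RPL37A and RPL40A. RPL1B, RPL2B, RPL6A, RPL37A and RPL40A were therefore called present in the auxotrophic pool and in neither prototrophic pool. On the mean of the T0 arrays RPL7B and RPL40A were present in PBprot, so their absence there depends on the rule. Absent means below array detection, and the paper reports that barcode sequencing found BCprot strains that arrays called absent. RPL2 is a core protein of the peptidyl transferase region, RPL1 forms the mobile stalk beside the exit site for tRNA, and RPL40 is made as a fusion to ubiquitin. Where a gene had 2 strains, the strains often differed. RPL39 strain 1 was present only in YKOaux and strain 2 only in BCprot, RPL16B strain 2 only in PBprot, and RPL37B strain 2 only in YKOaux. RPL20A strain 1, RPL21A strain 2, RPL29 strain 2 and RPL42A strain 2 were absent from all 3 pools at T0, so those genes were read on the other strain.

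Members stood lower in their pools after 5 generations of growth. Loss is the T0 median minus the grown median of the centred log2 level, and a strain was counted as lost where this was at least 1 and every grown array lay below every T0 array. From T0 to YPD, 10 of 42 members were lost in YKOaux (9.31% of all 4563 strains were), 6 of 36 in PBprot (3.79% of 4489) and 10 of 34 in BCprot (3.85% of 4233). The median loss of the members was 0.75, 0.66 and 0.75, and that of all strains −0.18, −0.12 and −0.11. Loss was above 0 for 40 of 42, 33 of 36 and 30 of 34 members, whereas 33.4%, 31.4% and 36.2% of all strains had a positive loss. No member met the same rule in the opposite direction. Without replicate 8 of YKOaux in YPD, 11 of 42 members were lost there (9.82% of all strains), and the median was 0.72, with 38 losses above 0. T0 arrays were normalized in batches of their own, so batch and growth cannot be told apart, and no p-value is given.

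**Figure D1:**
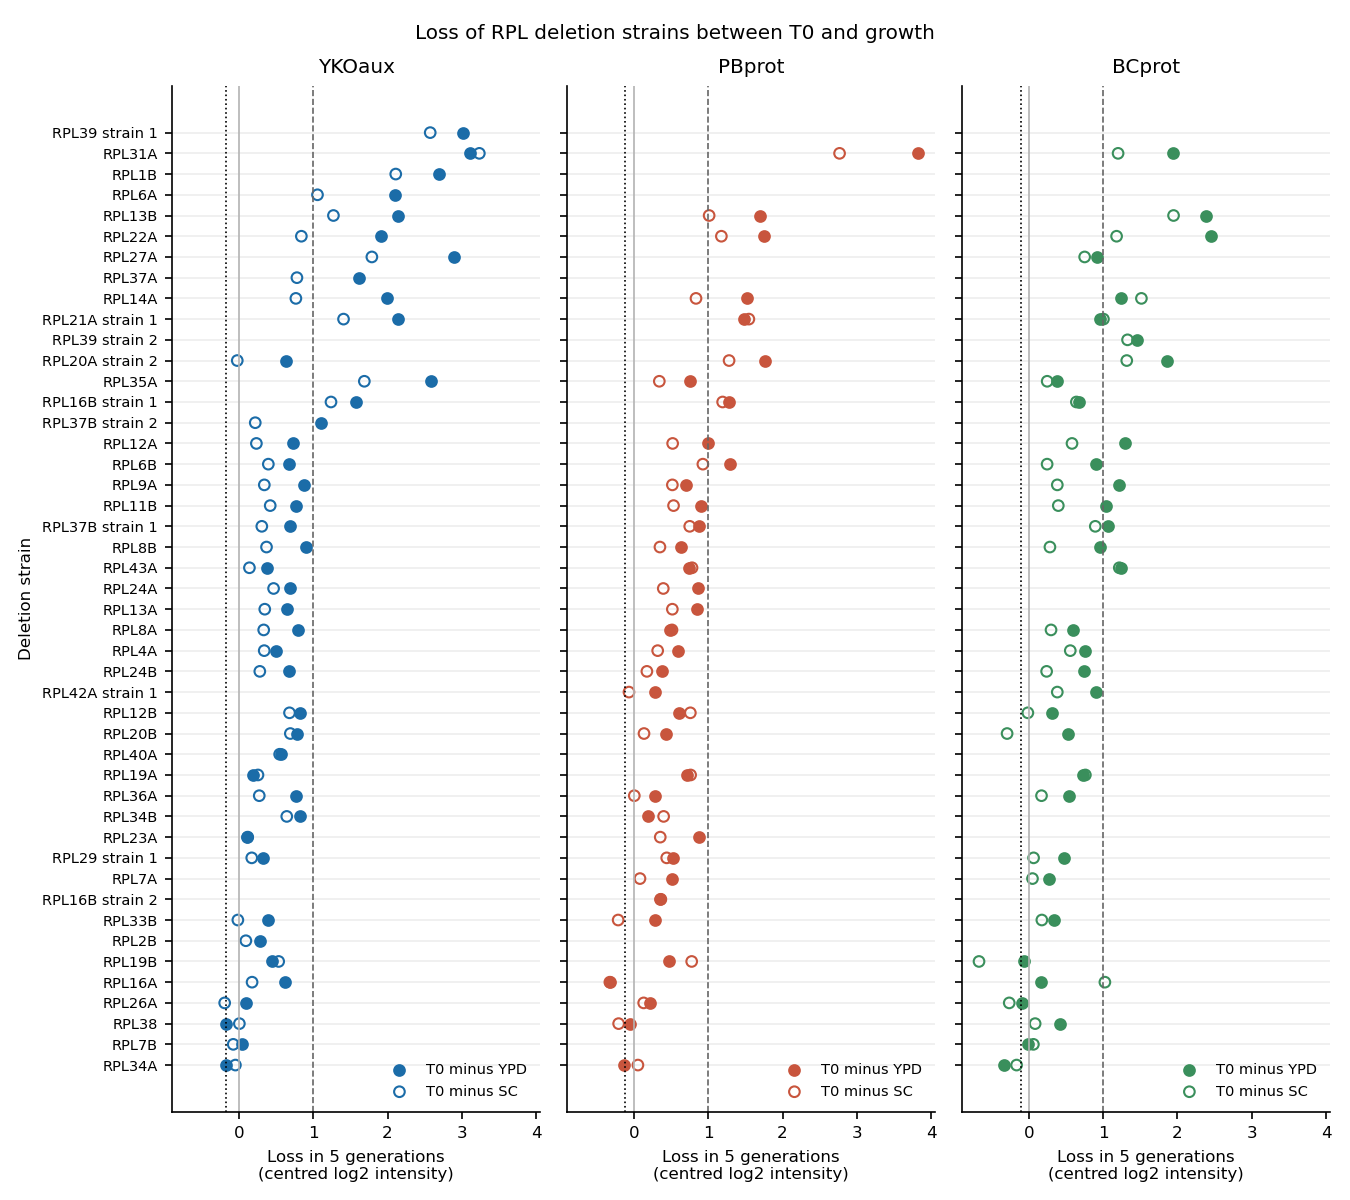
Loss of each member strain between the starting pool and growth, in centred log2 units, for YKOaux, PBprot and BCprot. Filled points are YPD and open points SC, the dashed line marks a loss of 1 and the dotted line the median of all strains in YPD; RPL31A had the largest YPD loss in YKOaux (3.12) and PBprot (3.83), and the YPD point of RPL34A lay below 0 in all 3 panels.

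RPL31A (YDL075W) had the largest loss in YKOaux and PBprot. RPL31 lies at the mouth of the exit tunnel, where chaperones dock on the ribosome. In YKOaux its uptag stood at −0.45, −0.40, −0.18, −0.08 and 0.00 at T0, and between −4.08 and −1.69 in 8 YPD arrays, with a median of −3.29. In PBprot the downtag was used, its T0 levels were −1.44, −0.62, −0.47, −0.30 and −0.10, and 9 YPD arrays lay from −4.65 to −2.18 with a median of −4.30. In BCprot they were −0.73, −0.71, −0.58, −0.52 and −0.32 at T0, and −3.30 to −2.30 (median −2.52) in 9 YPD arrays. Grown arrays lay below all T0 arrays in each collection, with losses of 3.12, 3.83 and 1.94, and the grown median was under the presence threshold in all 3. In SC the PBprot arrays were spread from −4.76 to −1.36 and overlapped T0, and the loss of 2.77 was not counted there. In YKOaux the strain was low in each other medium plotted, with a median of −3.41 in SC, −2.67 in YPG and −2.60 in CCCP. Without replicate 8 the loss in YKOaux was again 3.12, and the highest YPD array was −2.86.

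Of the 29 strains present at T0 in all 3 collections, 4 were lost in YPD in each of them, namely RPL31A, RPL13B, RPL22A and RPL14A. Another 2 (RPL20A strain 2 and RPL16B strain 1) were lost in 2 collections, 5 in 1 collection and 18 in none. Without replicate 8 these counts were 4, 2, 6 and 17. RPL22A (YLR061W) codes for a non-essential protein on the surface of the subunit. Its downtag stood at 1.29, 1.29, 1.37, 1.43 and 1.52 at T0 in YKOaux and between −1.98 and 0.27 in YPD, a loss of 1.92. In BCprot the 5 T0 values were 0.02, 0.26, 0.34, 0.48 and 0.53, and the 9 YPD values lay between −2.64 and −1.0, a loss of 2.45 and the largest of that collection. In PBprot the loss was 1.75, from a T0 median of −0.76 to −2.51. The T0 and YPD arrays of RPL22A did not overlap in any collection, and in PBprot and BCprot its grown median was under the presence threshold.

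RPL13B (YMR142C) was abundant at the start and was lost from each pool. Its T0 levels in YKOaux were 2.11, 2.12, 2.13, 2.22 and 2.27, and its YPD levels ran from −0.48 to 0.88, a loss of 2.14. In PBprot it stood at 0.70, 0.71, 0.81, 0.90 and 0.92 at T0 and between −1.65 and −0.18 in YPD, a loss of 1.69. In BCprot the values were 1.08, 1.11, 1.14, 1.15 and 1.25 at T0 and −1.75 to −0.42 in YPD, a loss of 2.38. The groups did not overlap. Without replicate 8 the loss in YKOaux was 2.22 and the highest YPD array stood at 0.54. RPL14A lost 1.99 in YKOaux, 1.52 in PBprot and 1.24 in BCprot, where its 5 T0 arrays lay between 1.02 and 1.41 and its YPD arrays between −1.45 and 0.36.

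RPL39, a very small protein that lines the exit tunnel, was represented by a different strain in each pool that held it. Strain 1 in YKOaux stood at −0.01, 0.28, 0.37, 0.39 and 0.40 at T0 and between −3.40 and −1.99 in YPD, a loss of 3.01. Strain 2 in BCprot stood at 1.37, 1.42, 1.67, 1.68 and 1.77 at T0 and between −3.18 and 0.64 in YPD, a loss of 1.45. Neither set of YPD arrays overlapped T0. The other single-copy genes stood closer to their T0 level. RPL38 lost −0.17, −0.05 and 0.41 in YKOaux, PBprot and BCprot, with overlapping T0 and YPD arrays in each, and RPL29 strain 1 lost 0.32, 0.52 and 0.47.

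Some large losses in the auxotrophic pool were of genes not called present in 1 or both prototrophic pools. RPL27A lost 2.89 in YKOaux, from 0.75, 0.77, 0.81, 0.88 and 0.96 at T0 to between −2.46 and −0.76, and 0.92 in BCprot, where it began at a median of −1.13 and was not counted as lost. It was absent from PBprot. RPL1B and RPL6A were absent from both prototrophic pools. RPL1B lost 2.69, with T0 levels from −0.52 to −0.10 and YPD levels from −3.46 to −2.71. RPL6A lost 2.11, from between 0.67 and 1.02 to between −3.27 and 0.36. None of these 3 groups of arrays overlapped in YKOaux. RPL35A, which sits beside RPL31 at the tunnel mouth, lost 2.58 in YKOaux (T0 0.67 to 0.83, YPD −2.21 to −0.44), 0.76 in PBprot and 0.37 in BCprot, and the difference between collections was not tested for losses. Without replicate 8 the YKOaux losses of RPL39 strain 1, RPL27A, RPL35A, RPL1B, RPL22A, RPL6A and RPL14A were 3.03, 3.02, 2.79, 2.62, 2.11, 1.99 and 1.87, and all 7 were still counted as lost.

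RPL20A and RPL21A varied between pools in other ways. Strain 2 of RPL20A (YMR242C) lost 0.64 in YKOaux, where YPD arrays reached 1.33 and overlapped T0 (1.25 to 1.4), 1.76 in PBprot (T0 1.07 to 1.60, YPD −1.59 to 0.61) and 1.86 in BCprot (T0 1.45 to 1.72, YPD −1.05 to 0.49). RPL21A strain 1 had a loss of 2.15 in YKOaux and was not counted as lost because replicate 8 stood at 1.95, above the T0 arrays (0.27 to 0.66). It was the 1 member added to the count when that array was left out. In PBprot its loss was 1.48 and in BCprot 0.96, with overlapping arrays in both. RPL12A, at the base of the acidic stalk that recruits elongation factors, lost 0.73, 0.99 and 1.29.

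At the other end of the range, some deletions kept pace with the pool. RPL34A had a loss of −0.17 in YKOaux (T0 1.32, 1.37, 1.38, 1.4 and 1.62), −0.14 in PBprot and −0.33 in BCprot. In BCprot its T0 arrays (0.32 to 0.40) lay almost wholly under its YPD arrays (0.38 to 1.19), and in the other pools T0 and YPD overlapped. Beside RPL34A and RPL38, the smallest losses were those of RPL7B in YKOaux (0.04, and −0.13 without replicate 8), RPL16A in PBprot (−0.32), and RPL26A (−0.09) and RPL19B (−0.06) in BCprot.

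**Figure D2:**
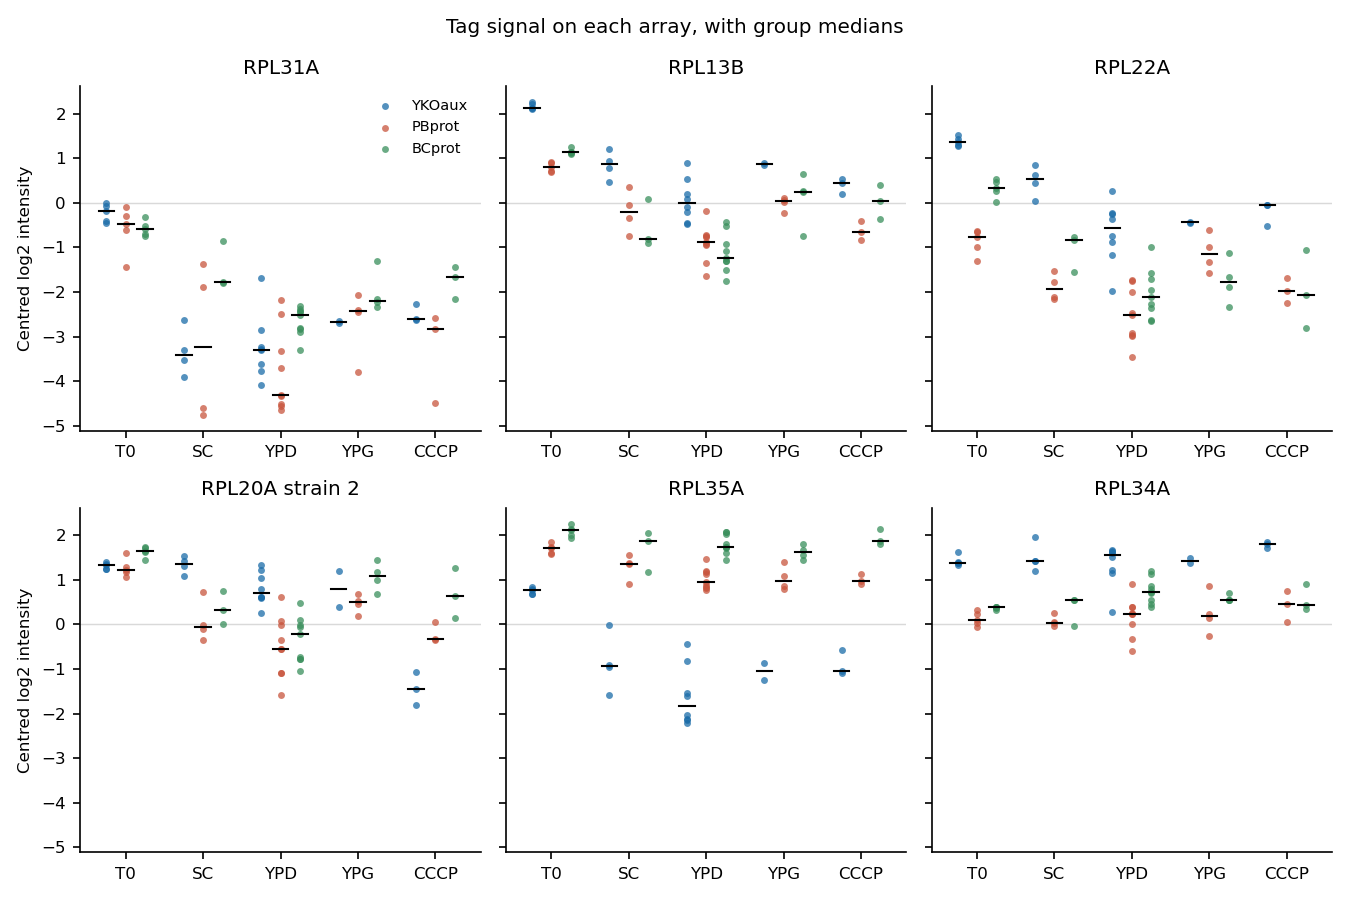
Centred log2 level of RPL31A, RPL13B, RPL22A, RPL20A strain 2, RPL35A and RPL34A in single arrays of T0, SC, YPD, YPG and CCCP, with 1 colour per collection and black bars for medians. RPL31A is low in each grown medium and RPL34A stays near its T0 level. RPL20A strain 2 in YKOaux is near 0.70 in YPD and near −1.45 in CCCP. The control of CCCP, YPD+DMSO, is not plotted, and this strain had a median of −1.97 there.

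For most members the loss was smaller in SC than in YPD. From T0 to SC, 9 of 42 members were lost in YKOaux (8.50% of all strains), 5 of 36 in PBprot (3.45%) and 8 of 34 in BCprot (4.70%), and the median loss was 0.36, 0.48 and 0.38. The loss in YPD exceeded that in SC for 36 of 42, 27 of 36 and 28 of 34 members, where 49.7%, 50.7% and 46.8% of all strains did so. The median of the difference was 0.36, 0.28 and 0.32 for members. In YKOaux the loss in YPD was the larger for 34 of 42 without replicate 8. RPL13B followed this order, with median levels in YKOaux of 2.13 at T0 and 0.86 in SC and losses of 1.27 in SC and 2.14 in YPD. RPL31A in YKOaux did not, with 3.24 in SC and 3.12 in YPD. These losses share the T0 arrays of their collection. SC and YPD arrays were normalized in separate batches, so medium and batch cannot be told apart here either.

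The loss of a member in 1 collection resembled its loss in another. Across strains, Pearson's r was 0.744 between YKOaux and PBprot (33 strains), 0.55 between YKOaux and BCprot (31 strains) and 0.755 between PBprot and BCprot (31 strains). The first 2 values were 0.729 and 0.547 without replicate 8. These are descriptions over strains that share pools, arrays and barcodes.

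Other ribosomal lists gave the following counts of strains lost in YPD in YKOaux, PBprot and BCprot. Small subunit strains (RPS, 47 genes) were lost in 16 of 43, 11 of 40 and 16 of 40 cases, with a median loss of 0.99, 0.72 and 0.96. Deletions of RPL genes outside the list (20 genes) were lost in 0 of 17, 1 of 17 and 1 of 19 cases, with a median of 0.19, 0.20 and 0.48. The 4 genes of the acidic stalk (RPP) were lost in 1 of 3, 2 of 4 and 2 of 4. Large subunit assembly factors with the regulator SFP1 (18 genes) were lost in 8 of 18, 3 of 16 and 6 of 16. Mitochondrial large subunit strains (MRPL, 34 genes) were lost in 14 of 27, 0 of 26 and 0 of 5. Without replicate 8, the YKOaux counts were 20 of 43 for RPS, 0 of 17 for RPL outside the list, 1 of 3 for RPP, 9 of 18 for assembly and 14 of 27 for MRPL strains. The lists were chosen with earlier results of these data known, and the differences between them were not tested.

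Whether deletion of either copy of a pair had the same cost was asked within arrays. The log2 ratio of the A strain to the B strain cancels a difference in level between arrays, but not a difference in scale. T0 arrays form batches of their own, so batch and growth cannot be told apart in the pair tests either. The T0 values of the ratio were set against its YPD values by an exact two-sided permutation test over arrays. Benjamini-Hochberg adjustment ran over the 23 tests on the 11 pairs. In 6 tests the adjusted p was under 0.05, and in 8 without replicate 8, where RPL16 in YKOaux and RPL19 in BCprot were added. The smallest p that the arrays allow is 0.0005 in PBprot and BCprot and 0.000777 in YKOaux.

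RPL20A fell against RPL20B in both prototrophic pools. The RPL20 ratio was 1.57 ± 0.45 (SD, n = 5) at T0 and 0.10 ± 0.61 (SD, n = 9) in YPD in PBprot, with ranges of 1.08 to 2.25 and −0.48 to 0.99 that did not overlap (change −1.47, exact permutation adjusted p = 0.0046). In BCprot it went from 1.15 ± 0.46 to −0.70 ± 0.64, with ranges of 0.74 to 1.68 and −1.97 to 0.13 (change −1.85, exact permutation adjusted p = 0.00447). In YKOaux the change was −0.14, from 1.16 ± 0.80 to 1.02 ± 0.74, and the ranges overlapped (exact permutation adjusted p = 0.751). Without replicate 8 that change was 0.09 (exact permutation adjusted p = 0.809).

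The RPL13 pair shifted the other way. In YKOaux the ratio of RPL13A to RPL13B rose from −0.33 ± 0.12 (SD, n = 5; −0.53 to −0.20) to 1.05 ± 0.56 (SD, n = 8; −0.29 to 1.38), a change of 1.38 (exact permutation adjusted p = 0.00894). The lowest YPD array lay among the T0 arrays, and without replicate 8 the lowest was 1.04 and the change 1.57 (exact permutation adjusted p = 0.00484). In PBprot the change was 0.26 (adjusted p = 0.148 in the same exact test). RPL13A is absent from BCprot.

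RPL6A fell by 1.53 against RPL6B in YKOaux, from −0.98 ± 0.13 at T0 to −2.51 ± 0.61 in YPD, with no overlap (−1.16 to −0.83 against −3.58 to −1.48, exact permutation adjusted p = 0.00447). RPL34A rose against RPL34B in YKOaux by 0.92, from 0.64 ± 0.12 to 1.56 ± 0.30, also with no overlap (0.48 to 0.76 against 1.19 to 2.06, exact permutation adjusted p = 0.00447). In PBprot the RPL34 change was −0.09 (adjusted p = 0.748 in the same exact test). Without replicate 8 the RPL6 change was −1.38 and the RPL34 change 0.85 (exact permutation adjusted p = 0.00484 in each). RPL16A rose against RPL16B strain 2 in PBprot by 0.71, from −1.90 ± 0.16 to −1.18 ± 0.28 (−2.05 to −1.69 against −1.44 to −0.67, exact permutation adjusted p = 0.00447).

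The other 17 tests did not pass. RPL16A against RPL16B strain 1 changed by 0.64 in YKOaux and 0.29 in BCprot, and without replicate 8 the YKOaux change was 0.95 (exact permutation adjusted p = 0.0249). RPL19A against RPL19B changed by 0.29, −0.35 and −0.82 in the 3 pools, the last with an exact permutation adjusted p of 0.0525. Its adjusted p was 0.046 in the family without replicate 8, although the BCprot arrays are the same, and the YKOaux change was then 0.42. RPL19 and RPL24 reach across to the small subunit, and RPL24A against RPL24B changed by −0.20 in YKOaux and −0.42 in PBprot. RPL12A against RPL12B changed by 0.43, −0.47 and −0.80, RPL8A against RPL8B by 0.21 in YKOaux and −0.11 in BCprot, RPL7A against RPL7B by −0.36 in BCprot, and RPL37A against RPL37B strain 1 by −0.83 in YKOaux. Without replicate 8 the YKOaux changes of RPL12, RPL8, RPL24 and RPL37 were 0.18, 0.12, −0.02 and −0.66. A test that did not pass does not show that the copies cost the same.

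**Figure D3:**
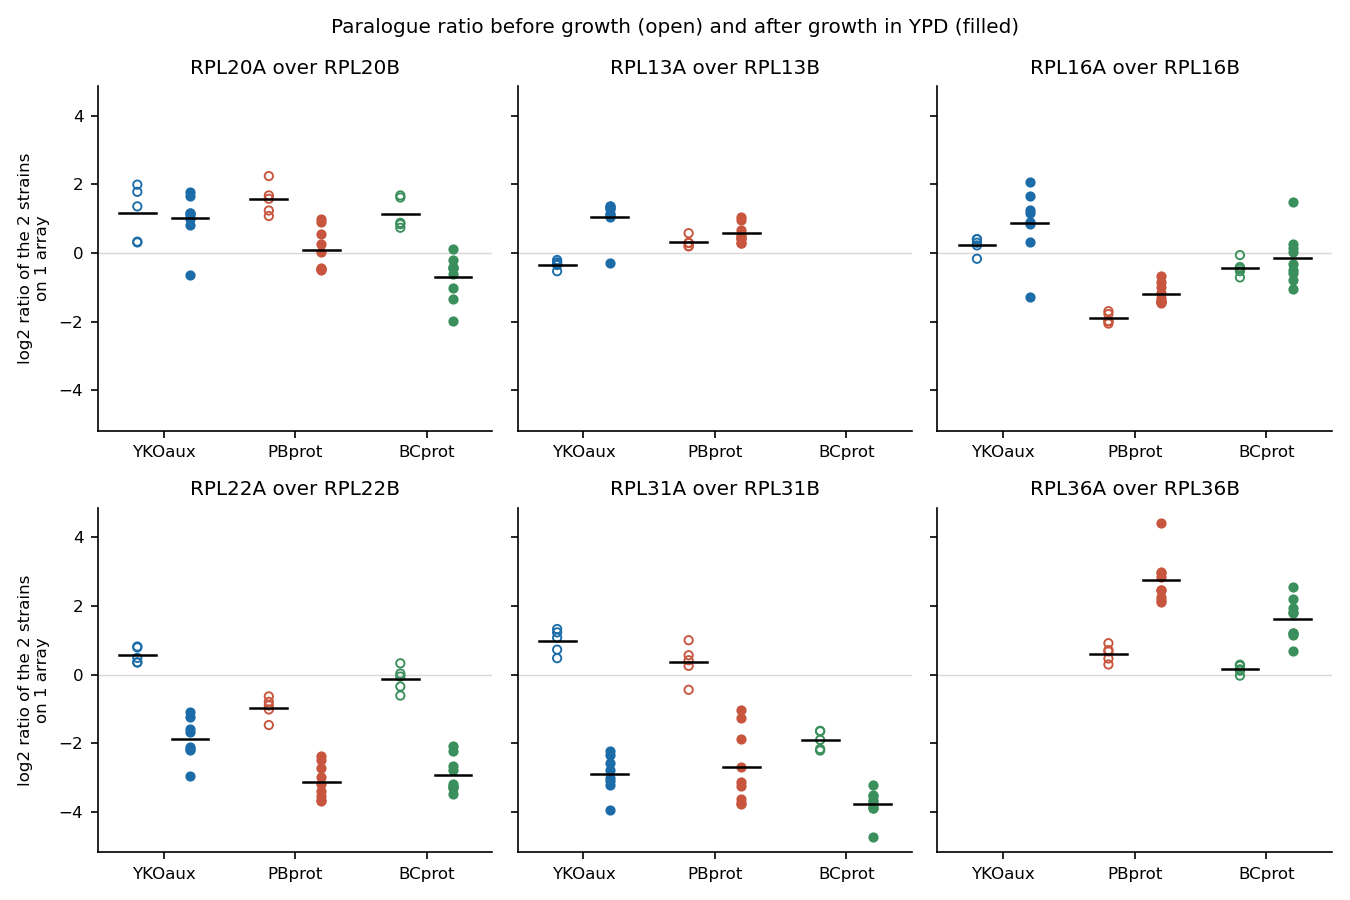
Within-array log2 ratio of the A strain to the B strain for RPL20, RPL13, RPL16, RPL22, RPL31 and RPL36 at T0 (open) and in YPD (filled), 1 point per array and bars for means. RPL31 and RPL22 fall in each collection, and RPL36 rises in PBprot and BCprot.

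For 14 of the 15 pairs with the other copy on the array but outside the list, the same test was run as a family of 31 tests that was added after the data had been seen, and 17 passed. Against RPL31B, RPL31A fell by 3.87 in YKOaux, from 0.97 ± 0.36 to −2.90 ± 0.55, fell by 3.06 in PBprot and fell by 1.86 in BCprot (exact permutation adjusted p = 0.00268 in each). RPL22A changed by −2.44, −2.15 and −2.78 against RPL22B (exact permutation adjusted p = 0.00268 in each), and RPL22B itself stood higher in YPD than at T0, with losses of −0.47, −0.50 and −0.48. The YKOaux changes without replicate 8 were −3.91 for RPL31 and −2.55 for RPL22. The ranges of T0 and YPD did not overlap in these 6 tests. In these pairs the member is the copy that fell.

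RPL1 and RPL36 went in the other direction. RPL1A rose against RPL1B by 2.95 in YKOaux (−0.11 ± 0.53 to 2.84 ± 0.45, exact permutation adjusted p = 0.00268), where RPL1B is the member that was lost and RPL1A had a loss of −0.12. RPL36A is a member, and it rose against RPL36B by 2.13 in PBprot (0.62 ± 0.24 to 2.74 ± 0.71, exact permutation adjusted p = 0.00268) and by 1.46 in BCprot (0.16 ± 0.13 to 1.62 ± 0.59, exact permutation adjusted p = 0.00282). RPL36B, outside the list, lost 2.42 and 1.88 in these pools, and RPL36A lost 0.29 and 0.53. RPL35A fell by 1.57 against RPL35B in YKOaux (exact permutation adjusted p = 0.0111, and −1.76 with 0.00301 without replicate 8), and in PBprot and BCprot the change was −0.20 and 0.27 (adjusted p = 0.333 and 0.321 in the same exact test). RPL27A changed by −2.21 against RPL27B in YKOaux (exact permutation adjusted p = 0.00268) and RPL21A by −1.35 against RPL21B in PBprot (exact permutation adjusted p = 0.00282). RPL14A changed by −1.10 in PBprot and −0.93 in BCprot against RPL14B (exact permutation adjusted p = 0.0103 and 0.0261). In BCprot RPL9A changed by −0.98 and RPL43A by −0.91 against the other copy, and RPL26A rose by 0.51 against RPL26B (exact permutation adjusted p = 0.0166, 0.0261 and 0.0465). In YKOaux the changes of RPL1 and RPL27 without replicate 8 were 2.89 and −2.40 (exact permutation adjusted p = 0.00301 in each). Leaving it out brought the passing tests to 18 and added RPL21A against RPL21B in YKOaux, where the change went from −1.22 (exact permutation adjusted p = 0.0989) to −1.65 (exact permutation adjusted p = 0.00301).

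Across media and compounds, members that changed were mostly higher than in the control. The fitness defect (FD) score subtracts a treatment's log2 value from the median of its controls, so a positive score is a strain that is lower in the treatment, and the median over treatment arrays is given with its SD. A call needs a score of 1 or more in size and an adjusted p under 0.05 in limma, adjusted over all strains tested in the comparison. Over 54 comparisons no member was called lower and 7 were called higher. In many of these comparisons few or none of all strains were called, so the absence of lower member calls is near the background there. Shares of all strains called lower are given below for MM, the protonophores, YPG and cisplatin. At an unadjusted limma p under 0.05, 53 of 1180 member tests in SC media passed, 22 of them lower. That total is near the share such a threshold passes by chance. In YPD media 120 of 444 passed, 7 of them lower. Counting adjusted p under 0.05 at any size of score, termed shifts here, 33 member tests were higher and 4 lower, and 32 of those 33 came from YPD media. Shares of all strains shifted are given below with the single comparisons.

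**Figure D4:**
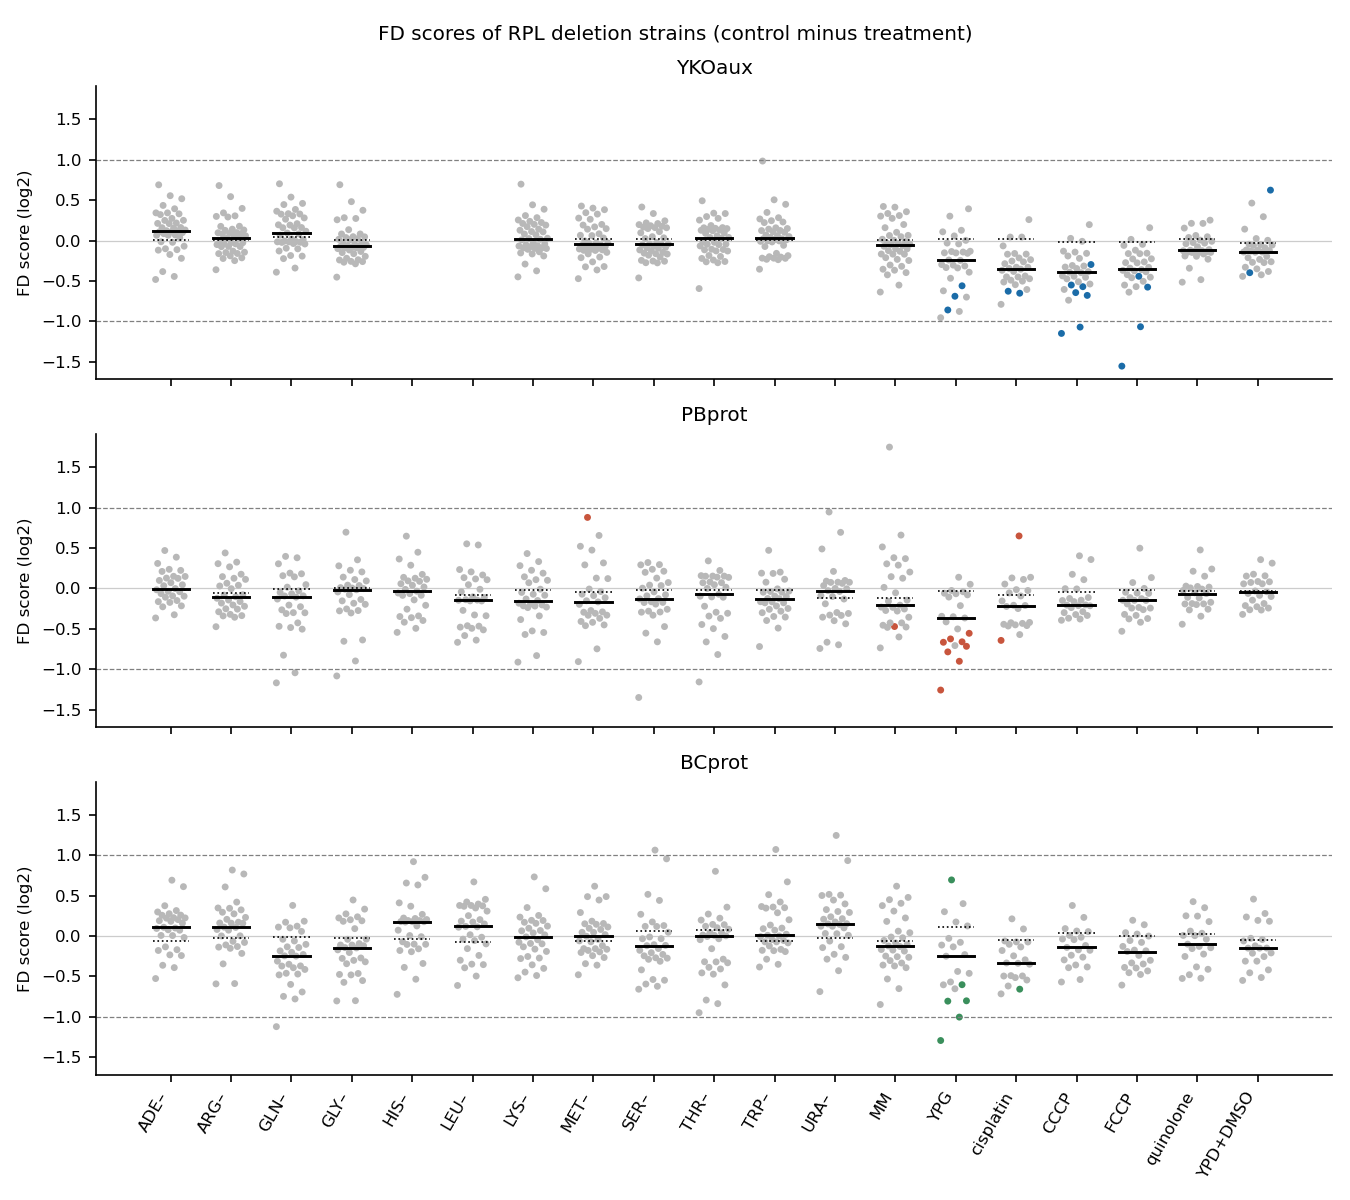
FD scores of the member strains tested in each comparison, 1 panel per collection, in log2 units. Grey points did not pass the adjusted p of 0.05 and coloured points did, solid bars are member medians, dotted bars the medians of all strains tested, and dashed lines mark scores of 1 and −1; in YPD media the member medians lie below the medians of all strains.

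Of the 7 calls 4 came from the protonophores in YKOaux, where no member was called lower although 2.85% of all strains were in CCCP and 2.32% in FCCP (4.30% and 3.00% at any size of score). In CCCP 7 of 30 members were shifted higher (3.00% of all 3929 strains) and in FCCP 4 of 30 (0.942%), and the member medians were −0.39 and −0.35, against −0.01 and −0.02 for all strains. Both are compared with the same YPD+DMSO arrays. Without replicate 8 of YPD, which enters the presence rule and the shared variance, 13 of 34 members were shifted in CCCP (4.71% of all strains) and 10 of 34 in FCCP (1.98%). In that fit RPL37A was called higher in CCCP beside RPL20B and RPL13B (score −1.01, limma adjusted p = 0.00134, 0.550% of all strains).

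RPL20B had the largest score among the 7 calls. It stood at 7.24 to 8.00 (median 7.40) in 9 YPD+DMSO arrays, at 7.97, 8.55 and 9.04 in CCCP and at 8.64, 8.96 and 9.04 in FCCP (log2 intensity). All FCCP arrays and all but the lowest CCCP array lay above the controls. The lowest controls lay close to the presence threshold of 7.16. Only 1 of its 2 tags was present in YPD media, so it was not tested where every tag had to be present. Its FD score was −1.15 ± 0.53 (SD, n = 3) in CCCP (limma adjusted p = 0.0269) and −1.55 ± 0.21 (SD, n = 3) in FCCP (limma adjusted p = 0.00213), where 0.280% and 0.0764% of all strains were called higher. The CCCP call was lost without CCCP replicate 2 (score −0.86, limma adjusted p = 0.315) and without replicate 3 (score −1.10, limma adjusted p = 0.128). It was also lost with quantile normalization (score −0.90, limma adjusted p = 0.0611).

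RPL13B was called in the same comparisons. It stood at 8.26 to 9.08 (median 8.60) in YPD+DMSO, at 9.42, 9.67 and 9.77 in CCCP and at 9.58, 9.67 and 9.82 in FCCP, with no overlap. The scores were −1.07 ± 0.18 (limma adjusted p = 0.00281) and −1.07 ± 0.12 (limma adjusted p = 0.0019). Leaving out single arrays moved the CCCP score between −0.95 and −1.12 and the FCCP score between −0.98 and −1.14, and thus to either side of the call, while the limma adjusted p stayed at 0.0379 or less. With the mean of its present tags, RPL13B had scores of −0.72 in CCCP and −0.80 in FCCP (limma adjusted p = 0.0282 and 0.0411). Neither was then called. In CCCP 2 members were shifted higher without CCCP replicate 3. YPD+DMSO itself stood below YPD for this strain, whose 8 YPD arrays lay between 8.74 and 10.11 (score 0.62 ± 0.25, limma adjusted p = 0.0321), and this did not pass without replicate 8 of YPD (score 0.54, limma adjusted p = 0.0643). At smaller scores RPL4A, which lines the exit tunnel, was higher in CCCP (−0.55 ± 0.09) and FCCP (−0.58 ± 0.01), as was RPL26A (−0.30 ± 0.17 and −0.44 ± 0.11), and RPL8B, RPL12A and RPL16B strain 1 were higher in CCCP (−0.57 to −0.68).

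In PBprot and BCprot no member was shifted in CCCP or FCCP, where 0.847% and 0.249% of all strains in PBprot and 0.0521% and 0.0782% in BCprot were shifted higher and 5.28%, 4.28%, 0.990% and 0.886% lower. Of all strains 4.16% and 2.91% in PBprot and 0.625% and 0.678% in BCprot were called lower. At these shares a higher shift of 0 of 23 and 0 of 21 members is near the background. The member medians were −0.21 and −0.15 in PBprot and −0.14 and −0.19 in BCprot, against −0.05, −0.02, 0.03 and 0.00 for all strains. The direct test of YKOaux against either collection gave no member past an adjusted p of 0.05 in these compounds (0 of 21 against PBprot and 0 of 18 against BCprot). Of all strains 1.65% and 0.766% passed against PBprot and 0.648% and 0.471% against BCprot in CCCP and FCCP, so 0 members is near the background too. Across the 30 members tested in YKOaux the loss in YPD and the CCCP score had r = −0.48, and in PBprot and BCprot r = 0.09 (23 members) and −0.39 (21 members), as a description across strains that share arrays. Over all strains tested r was 0.13, 0.21 and −0.10. With replicate 8 left out the YKOaux values were −0.62 over 34 members and 0.19 over all strains.

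The comparison lists had these scores in CCCP in YKOaux. The median score of RPS strains was −0.53 with 14 of 34 shifted higher, that of RPP strains −0.67 with 2 of 3, that of assembly strains −0.44 with 4 of 13, and that of RPL strains outside the list −0.06 with 1 of 15. MRPL strains had a median of 2.37, and 11 of 17 were called lower. In PBprot 18 of 23 MRPL strains were called lower in CCCP, with a median of 2.03.

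RPL20A strain 2 stood lower in YPD+DMSO than in YPD in the auxotrophic pool. Its uptag stood at 1.25 to 1.4 at T0, 1.08 to 1.53 in SC, 0.25 to 1.33 in YPD and 0.39 and 1.2 in YPG. In 9 YPD+DMSO arrays it lay between −4.01 and −1.30 (median −1.97), in CCCP between −1.81 and −1.07, in FCCP between −1.82 and −1.27 and in the quinolone between −1.70 and −0.71. All arrays with DMSO were thus lower than all YPD arrays, and the cisplatin arrays (−0.84, −0.52 and 0.94) ran from within the quinolone range into the YPD range, so media with and without DMSO were not fully separated. Replicate 8 of YPD, at 1.22, lay within the range of the other YPD arrays. The downtag did not overlap between these groups either, with −0.48 to 0.86 in YPD and −4.16 to −1.53 in YPD+DMSO.

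The main fit did not test this strain, since YPD+DMSO counts among the controls in which a tag must be present. With no presence filter its score for YPD+DMSO against YPD was 2.17 ± 0.82 (SD, n = 9, limma adjusted p = 7.95e-06), where 0.367% of all strains were called lower, and with presence taken on the mean of the control arrays it was again 2.17 (limma adjusted p = 2.73e-06, 0.470% of all strains). Without replicate 8 of YPD and with no filter it was 2.18 ± 0.82 (limma adjusted p = 5.71e-06, 0.444% of all strains). The within-array ratio of RPL20A to RPL20B, on downtags, changed by −2.12 from T0 to YPD+DMSO (0.31 to 2.00 against −2.34 to −0.18, exact permutation adjusted p = 0.0023, over the 23 pair tests), against −0.14 from T0 to YPD. In PBprot the YPD and YPD+DMSO medians of RPL20A were −0.54 and −0.56, and in BCprot −0.21 and 0.10. The strain was singled out after its values had been seen.

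Some members were higher in glycerol medium in each collection. In YPG 3 of 30 members were shifted higher in YKOaux (0.840% of all strains), 8 of 23 in PBprot (4.26%) and 5 of 21 in BCprot (2.95%), and no member was called lower, against 2.62%, 4.83% and 0.860% of all strains. The member medians were −0.24, −0.37 and −0.25, and those of all strains 0.02, −0.03 and 0.11. YPG and cisplatin share the YPD arrays as their control. Where every tag had to be present, 4 of 10 members were shifted in PBprot and 0 of 10 in BCprot.

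RPL16B strain 1 had the smallest adjusted p of the 7 calls. In PBprot it stood at 8.06 to 8.76 (median 8.21) in 9 YPD arrays and at 9.21, 9.44, 9.49 and 9.65 in YPG, with no overlap (score −1.26 ± 0.18, SD, n = 4, limma adjusted p = 6.74e-06, 0.299% of all strains called higher). RPL16B strain 2, a separate deletion of the same gene, stood at 9.54 to 10.06 in YPD and at 10.24, 10.46, 10.57 and 10.62 in YPG (score −0.63 ± 0.17, limma adjusted p = 4.05e-05). Both strains of RPL16B were higher in glycerol without overlap. RPL36A was also higher in PBprot, at 9.60 to 10.02 in YPD and 10.55, 10.60, 10.70 and 11.01 in YPG (score −0.79 ± 0.21, limma adjusted p = 2.9e-06). RPL29 strain 1, RPL13A, RPL24A, RPL8B and RPL4A were shifted higher with scores from −0.56 to −0.90.

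In BCprot RPL20A strain 2 was called higher in YPG. Its 9 YPD arrays lay between 7.53 and 9.07 (median 8.37) and its YPG arrays at 9.27, 9.57, 9.76 and 10.04 (score −1.29 ± 0.32, SD, n = 4, limma adjusted p = 0.0021, 0.443% of all strains called higher), with no overlap. RPL9A had a score of −1.0 ± 0.34 (limma adjusted p = 0.0339) with overlapping arrays. Its call was lost without YPD replicate 2, 4, 5, 6 or 7 or YPG replicate 1, 3 or 4 (scores from −1.07 to −0.93, limma adjusted p from 0.0439 to 0.11), whereas that of RPL20A strain 2 held without any single array. RPL12A, RPL24B and RPL8A were shifted higher (−0.81, −0.80 and −0.60) without overlap, and RPL7A was lower with overlapping arrays (0.69 ± 0.35, limma adjusted p = 0.041, 4.67% of all strains shifted lower). Without YPG replicate 4 only 1 of the 5 higher shifts passed.

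In YKOaux RPL16A (−0.86 ± 0.24), RPL36A (−0.69 ± 0.17) and RPL4A (−0.56 ± 0.09) were shifted higher in YPG, each without overlap on 2 YPG arrays. RPL16A stood at 8.37 to 9.35 in YPD and at 9.60 and 9.94 in YPG. RPL4A and RPL36A were therefore shifted higher in YPG in both YKOaux and PBprot. Without YPG replicate 1, which leaves a single YPG array, none of the 3 passed, and without replicate 8 of YPD 6 of 34 did (1.31% of all strains).

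Some members that the main fit did not test were called higher when presence was taken on the mean of the control arrays or was not required. In BCprot YPG RPL16A had a score of −1.45 ± 0.12 and RPL13B of −1.49 ± 0.59 under either rule (limma adjusted p between 0.00471 and 0.0221). The uptag of RPL16A showed little such rise. Its centred level was −1.55 to 0.76 (median −0.19) in YPD and −0.13 to 0.20 (median −0.06) in YPG. In PBprot RPL14A had −1.49 ± 0.37 under either rule (limma adjusted p = 0.000363 with no filter), and RPL11B, present at T0 but not called present in the YPD media controls, −1.09 ± 0.25 with no filter (limma adjusted p = 4.83e-05). With no filter 0.792% of all strains in BCprot and 0.753% in PBprot were called higher in YPG. RPL37A in YKOaux CCCP had −1.01 ± 0.25 under either rule and without replicate 8 of YPD (limma adjusted p = 0.0118 with no filter). The unfiltered BCprot fits also called RPL23A higher in YPG, and RPL24A and RPL40A without threonine (3.05% of all strains called higher there). These 3 strains were not called present in BCprot at T0, in SC or in YPD media under any rule, so their scores are not given.

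In cisplatin few members were shifted. None was called, where 0.993%, 1.32% and 1.54% of all strains in YKOaux, PBprot and BCprot were called lower. In YKOaux RPL36A (−0.65 ± 0.20) and RPL24B (−0.63 ± 0.19) were higher (2 of 30, 0.331% of all strains), and without replicate 8 of YPD 5 of 34 were (0.669%), and without cisplatin replicate 2 none was. In PBprot RPL33B was higher (−0.64 ± 0.29, 1.02% of all strains) and RPL16A lower (0.65 ± 0.32, limma adjusted p = 0.0139, 3.24%), and in BCprot RPL37B strain 1 was higher (−0.66 ± 0.52, 0.287%). The arrays of RPL36A and RPL33B did not overlap their controls, and those of RPL24B, RPL16A and RPL37B strain 1 did. No member was shifted in the quinolone in any collection, where 0.153%, 0.0249% and 0.0521% of all strains were shifted lower and 0% higher, so 0 members is near the background. In YPD+DMSO RPL36A (−0.40 ± 0.14) was shifted higher in YKOaux, and it was without replicate 8 too (limma adjusted p = 0.00619). RPL13B, described above, was shifted lower there. Of all 3929 strains 17 were shifted higher and 35 lower in that comparison.

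Dropout media left members near the level in SC. Over 36 comparisons the member median score lay between −0.24 and 0.17, and no member was called. Of all strains, the largest share called lower was in PBprot MM, followed by PBprot without leucine, uracil or histidine. In most other dropout media few or none of all strains were called, so the absence of member calls there is near the background. In MM 1.17%, 4.59% and 0.600% of all strains in YKOaux, PBprot and BCprot were called lower and 0.229%, 0.0972% and 0.0750% higher, and in medium without threonine 0.0458%, 0.0486% and 0% were called lower. RPL4A was shifted higher in PBprot MM, at 9.79, 9.92, 10.05 and 10.05 against 9.35, 9.47, 9.55 and 9.57 in SC (score −0.47 ± 0.13, limma adjusted p = 0.0398, 2.77% of all strains). RPL16B strain 2 was shifted lower in PBprot without methionine, at 9.06, 9.08 and 9.24 against 9.71 to 10.01 in 4 SC arrays (score 0.88 ± 0.10, limma adjusted p = 0.000763, 0.219% of all strains). Neither pair of groups overlapped. The most positive score, that of RPL9A in PBprot MM, was 1.75 ± 1.06 (SD, n = 4) and did not pass (limma adjusted p = 0.153).

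In PBprot the replicate numbers of SC media paired the arrays in 12 of 13 comparisons, and a fit with the number as a block added members there. Without leucine RPL9A was lower by 0.87 (limma adjusted p = 0.0375) and RPL8B higher, at −0.58 (limma adjusted p = 0.0381), with 6.46% of all strains past the adjusted p in that fit. Without uracil RPL9A was called lower at 1.04 (limma adjusted p = 0.0281) and RPL19B was lower by 0.86 (limma adjusted p = 0.0173), with 4.37%. With 29 members tested in each, the members named without leucine or uracil are near the background at these shares. RPL16B strain 2 without methionine was lower by 0.85 in the blocked fit (limma adjusted p = 0.0143, 0.632% of all strains). Without the block the 4 results without leucine or uracil had limma adjusted p between 0.294 and 0.641.

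Differences between collections were tested directly for 1182 member tests in 51 comparisons, and 2 passed, with 42 at an unadjusted p under 0.05. RPL34B in MM stood at 9.63, 9.63 and 9.81 in YKOaux, above its SC arrays (9.07 to 9.42), and at 7.75, 8.17, 8.59 and 8.67 in PBprot, where SC arrays lay between 8.44 and 9.56. MM of YKOaux was supplemented and that of PBprot was not, so collection and medium cannot be told apart here. The difference of the effects was −1.01 ± 0.29 (SE, limma adjusted p = 0.0229, 5.11% of all strains passed), and it did not pass without YKOaux MM replicate 1 (−0.95) or PBprot MM replicate 3 (−0.83). RPL16A in cisplatin stood at 9.31, 9.38 and 9.50 in YKOaux against 8.37 to 9.35 in YPD, and at 7.86, 7.86, 8.05 and 8.54 in PBprot against 8.35 to 9.22. It lay toward or above the top of its control range in the diploid pool and toward or below the bottom in the haploid pool, a difference of −1.08 ± 0.22 (SE, limma adjusted p = 0.0034, 1.02% of all strains). Without replicate 8 of YKOaux in YPD the difference was −1.01 ± 0.21 (SE, limma adjusted p = 0.00549, 0.738% of all strains).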

How the data were processed

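The authors deposited 1 log2 intensity per tag and array. As the methods state, uptags and downtags were scaled separately to their median within a set of collection and media, and the starting pools form sets of their own, so the sets coincide with the normalization batches; values ran from 3.61 to 14.67. Whether these values carry the ComBat correction that the methods mention is not given in the sources used here and was not assumed. Of 236 arrays 234 were matched to a condition, and 2 BCprot arrays with contradicting labels were left out. The members and lists were chosen with earlier results of these data known. Presence came from a mixture of 2 Gaussians fitted to the control arrays (posterior above 0.5 in each), and the present tag of lowest coefficient of variation was used. FD scores were tested with limma 3.58.1 (R 4.3.3; lmFit and eBayes, 1 mean per condition, Benjamini-Hochberg over all strains tested) and pairs with exact permutation tests in Python 3.11.15 (numpy 2.4.6, pandas 2.3.3). The permutation test, the mixture and the loss rule were tested on simulated data. Named members are those called, the 6 largest and 3 smallest losses per collection, both genes of each tested pair, and those absent at T0; others are named with the shifts, the wider fits and the added pairs, after their values were seen. Deviations of arrays with the same replicate number correlated above 0.1 in every pair for 9 of 10 YKOaux, 12 of 13 PBprot and 1 of 13 BCprot comparisons in SC media and for none in YPD media; the labels do not say what the numbers share. Alternatives changed the presence rule, tags, normalization, filter, thresholds, block and single arrays. Leaving out YKOaux YPD replicate 8 and testing pairs with a paralogue outside the list were added after seeing the data. All 43 genes were named through RefSeq. The number of arrays limits the precision.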

Additional observations from a re-analysis of the deposited data

Results flagged for a closer look

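Single arrays stood apart from the rest of their group in 7 of the 64 groups of 4 to 10 arrays examined for the named members, where chance alone gives about 1 in 20. Of these, 2 came from replicate 8 of YKOaux in YPD, with a centred log2 level of 1.95 for RPL21A strain 1, far above the other arrays, and of 0.28 for RPL34A, far below them. The others were RPL34A in YKOaux T0 replicate 2 (1.62), RPL14A in PBprot YPD replicate 1 (0.29), RPL16A in PBprot YPD replicate 7 (−0.19), RPL19B in BCprot YPD replicate 3 (1.54) and RPL39 strain 2 in BCprot YPD replicate 6 (−3.18). The effect of a treatment differed between YKOaux and PBprot in the direct test for RPL34B in MM (−1.01) and for RPL16A in cisplatin (−1.08). MM was supplemented for YKOaux alone, so for RPL34B collection and medium cannot be told apart.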

How the results depend on the processing

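Presence of every tag in place of 1 tag left 22 members at T0 in PBprot, 18 in BCprot and 15 in PBprot in SC media. In YPD media it left 19 in YKOaux, 10 in PBprot and 10 in BCprot. With every tag the calls in drugs and YPG fell to 2 higher, shifts there to 20 higher, losses to 3 in PBprot YPD and 5 in BCprot SC, and differences between collections to 1. With presence on the mean of controls, 1 member was called lower and 11 higher in drugs and YPG. With no filter 1 was called lower and 12 higher there and 2 higher in dropout media, with 5 shifts lower in drugs and YPG and 3 higher in dropout media. The mean of tags left 0 shifts in either direction in dropout media and 0 lower in drugs and YPG. Quantile normalization left 0 higher in dropout media and 1 lower in drugs and YPG. An FD threshold of 0.5 gave 1 call lower in dropout media, and 3 lower and 29 higher in drugs and YPG, and a threshold of 1.5 gave 1 higher. Leaving out YKOaux YPD replicate 8, with presence set again, gave 50 higher shifts in drugs and YPG.

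Leaving out single arrays moved calls lower in dropout media between 0 and 1 (without PBprot MM replicate 1), shifts there between 1 and 2 lower and between 0 (without PBprot SC replicate 2) and 2 higher (without YKOaux SC replicate 2), and differences between collections between 1 (without PBprot MM replicate 3) and 2. Calls higher in drugs and YPG lay between 5 and 8 and shifts between 27 and 36. A loss threshold of 0.5 gave 19 members in YKOaux YPD, 15 in PBprot YPD and 12 in PBprot SC. A threshold of 2 gave 3 in YKOaux SC, 1 in PBprot YPD, 2 in BCprot YPD and 0 in SC in PBprot and BCprot, and no centring gave 2 in PBprot SC and 5 in BCprot SC. With YPD+DMSO arrays in place of YPD, 11 pair tests passed. Of 11 pair tests repeated on the other tag type, 8 kept their direction, and 3 were called on both in the same direction. Some changes that did not pass took the other sign. RPL16A against RPL16B strain 1 in BCprot changed by 0.29 with YPD and by −0.44 with YPD+DMSO. The cause of these changes was not tested.

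With the replicate number as a block, calls in dropout media went from 0 to 2 lower, and shifts from 1 to 7 lower and from 1 to 5 higher; in PBprot MM, where the numbers did not pair the arrays, RPL9A was lower by 1.51 (limma adjusted p = 0.00186, 20.7% of all strains). In drugs and YPG, where they did not pair arrays either, the block left 3 higher calls of 7, 12 higher shifts of 32 and 1 lower of 3. RPL20B in FCCP (−1.16), RPL16B strain 1 in PBprot YPG (−1.08) and RPL20A strain 2 in BCprot YPG (−1.59) kept their call, and RPL13B in CCCP (−0.89) and FCCP (−0.96), RPL20B in CCCP (−0.80) and RPL9A in BCprot YPG (−0.73) did not.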
